A study of Mus musculus with 11 samples.

Results

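Matricellular and adhesive glycoproteins are secreted proteins that sit in or on the extracellular matrix and change how cells attach to it. The 10 genes described here were taken by symbol and comprise the thrombospondins Thbs1 and Thbs2, the adhesive proteins Postn, Tnc and Fn1, the mineral- and collagen-binding proteins Sparc and Spp1, and the CCN family members Ccn1, Ccn2 and Ccn5. All 10 were present among the 12430 genes of the deposited count table. A filter on low counts left 10067 genes for testing, among them 9 of the 10, and Spp1 did not pass it.

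The samples were 11 libraries of fibroblasts sorted from the thymus, the organ in which T cells develop, of young male wild-type mice. The untreated group had 4 libraries from age-matched mice that were not injected. The other groups had 3 libraries taken 18 h and 4 libraries taken 4 d after intraperitoneal dexamethasone, a synthetic glucocorticoid, at 200 ug per 10 g body weight. No vehicle-injected group was among these samples, so the drug and the injection cannot be told apart. For the later group the titles say 3 d and the other labels 4 d, which is used here. The labels do not say that each replicate came from a separate animal, and the p-values therefore measure only how these samples vary, which could be technical.

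Total counts ran from 916281 in 4 d replicate 4 to 3357113 in 4 d replicate 3, and 18 h replicate 2 had 924731. RNA was read from the 3′ ends of polyadenylated transcripts (MARS-seq). Levels are in CPM, that is, counts divided by the TMM-scaled library size and given per 1e+06, and 3 counts equalled 3.63 and 3.72 CPM in those shallow libraries and 0.997 to 1.67 CPM in the other 9. The sort was labelled CD45-, CD31-, CD34+, PDGFRalpha+ and, unusually for fibroblasts, EpCAM+. Pdgfra was at 49.8 to 153 CPM and Cd34 at 466 to 1298 CPM over the 11 libraries, while Epcam was at 0.377 to 10.3 CPM. Epcam is 1 of 6 measured epithelial markers, which include keratin genes. Together these summed to 859 to 1525 CPM untreated, 843 to 1663 CPM at 18 h and 139 to 1446 CPM at 4 d. The low level of Epcam thus did not hold for that list as a whole. Markers of some other cell types moved with treatment. The summed level of 16 endothelial markers ran from 286 to 467 CPM in the untreated group, from 584 to 1523 CPM at 18 h and from 323 to 371 CPM at 4 d. Of those tested, 6 of 9 were higher at 18 h and 0 passed as lower. Kdr went the other way, at 12.1 to 41.8 CPM at 18 h against 70.4 to 121 CPM untreated. Of the 10 measured macrophage and monocyte markers 5 were higher, with summed levels of 81.0 to 204, 166 to 440 and 90.6 to 174 CPM in the same order of groups. The 12 measured pericyte and smooth muscle markers summed to 235 to 474, 412 to 1135 and 166 to 225 CPM, and at 18 h 4 of 10 tested were higher and 2, Abcc9 and Myl9, lower. The macrophage and pericyte sums at 18 h overlapped the untreated ones. Fibroblast markers, 10 of 10 measured, summed to 20089 to 30504 CPM untreated, 9311 to 18981 CPM at 18 h and 22521 to 40131 CPM at 4 d. Of these markers 1, Pdgfrb, was higher at 18 h, 1, Col1a2, was lower and 8 did not pass. The 4 measured mesothelial markers summed to 1804 to 3093 CPM untreated, 1339 to 2774 CPM at 18 h and 425 to 2988 CPM at 4 d. The sum of 425 CPM was in 4 d replicate 3, the lowest of the 11 libraries, against 977 to 2988 CPM in the other 4 d libraries.

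As background, thrombospondins are multidomain proteins that bind CD36, CD47, calreticulin, integrins and heparan sulfate, and thrombospondin-1 can activate latent TGF-beta. Fibronectin is assembled by cells into fibrils through integrins that read an Arg-Gly-Asp (RGD) sequence, and tenascin-C and periostin bind to and modify that network. CCN1 and CCN2 are widely used readouts of YAP-TEAD and SRF activity in stromal cells, and CCN5 lacks the C-terminal cysteine knot that CCN1 and CCN2 carry.

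RGD is the sequence by which several of these proteins engage integrins, so the coding sequences were searched for it. The 10 members' longest coding transcripts in GENCODE for GRCm38, the sequence of mm10, encoded it in 4 members: once in Thbs1, Thbs2 and Spp1 and in 2 places in Fn1. It was not found in Postn, Tnc, Sparc, Ccn1, Ccn2 or Ccn5. The stretches are written 5′ to 3′ on the coding strand with 12 bases on either side, and capitals mark the 3 RGD codons. Those of Thbs1 and Thbs2 are joined across an intron that lies inside the coordinates given.
Thbs1, chr2:118122677-118122902, plus strand, codon 927 of 1171: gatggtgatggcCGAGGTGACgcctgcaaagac
Thbs2, chr17:14671472-14673147, minus strand, codon 928 of 1172: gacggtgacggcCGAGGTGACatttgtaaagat
Fn1, chr1:71606734-71606766, minus strand, codon 1614 of 2477: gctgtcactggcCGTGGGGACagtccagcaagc
Fn1, chr1:71597431-71597463, minus strand, codon 2181 of 2477: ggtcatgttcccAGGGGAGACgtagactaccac
Spp1, chr5:104439469-104439501, plus strand, codon 145 of 295: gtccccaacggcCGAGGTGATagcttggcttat
The 2 thrombospondins carried the tripeptide at nearly the same codon and with the same 9 bases in capitals. Cysteine codons made up 10% of Ccn1, 11.2% of Ccn2 and 11.6% of Ccn5, the highest shares of the 10 members, and 0.678% of Spp1. Ccn5 had 251 codons against 379 in Ccn1 and 348 in Ccn2.

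The thrombospondin gene Thbs1 had the largest difference from untreated of the 9 tested members at both times. It was higher than in untreated fibroblasts both at 18 h and at 4 d, and it was the only tested member that passed at either time. Of the 9 tested members 1 was higher and 0 were lower at 18 h, where 12.5% of all tested genes passed in either direction, 7.85% higher and 4.69% lower. At 4 d the count was again 1 higher and 0 lower, against 3.31% of all genes, 2.48% higher and 0.824% lower. These counts come from edgeR's quasi-likelihood test, with an adjusted p (Benjamini-Hochberg, over the 10067 genes) below 0.05 as the threshold. At an unadjusted p below 0.05, 1 member was higher and 1 lower at 18 h, and 3 were higher and 1 lower at 4 d. By p, Sparc at 18 h ranked 2281 and Thbs2 at 4 d 1668 among the 10067 tested genes, so at least that many genes passed this level. The share of all genes at this level was not computed, here or for the lists below. DESeq2 at the adjusted threshold called 0 lower at 18 h and 1, Ccn5, at 4 d. The 18 h and 4 d comparisons share the untreated libraries, so their values are set side by side and not counted as independent. In bulk RNA, fewer cells of a type and less RNA per cell cannot be told apart.

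**Figure D1:**
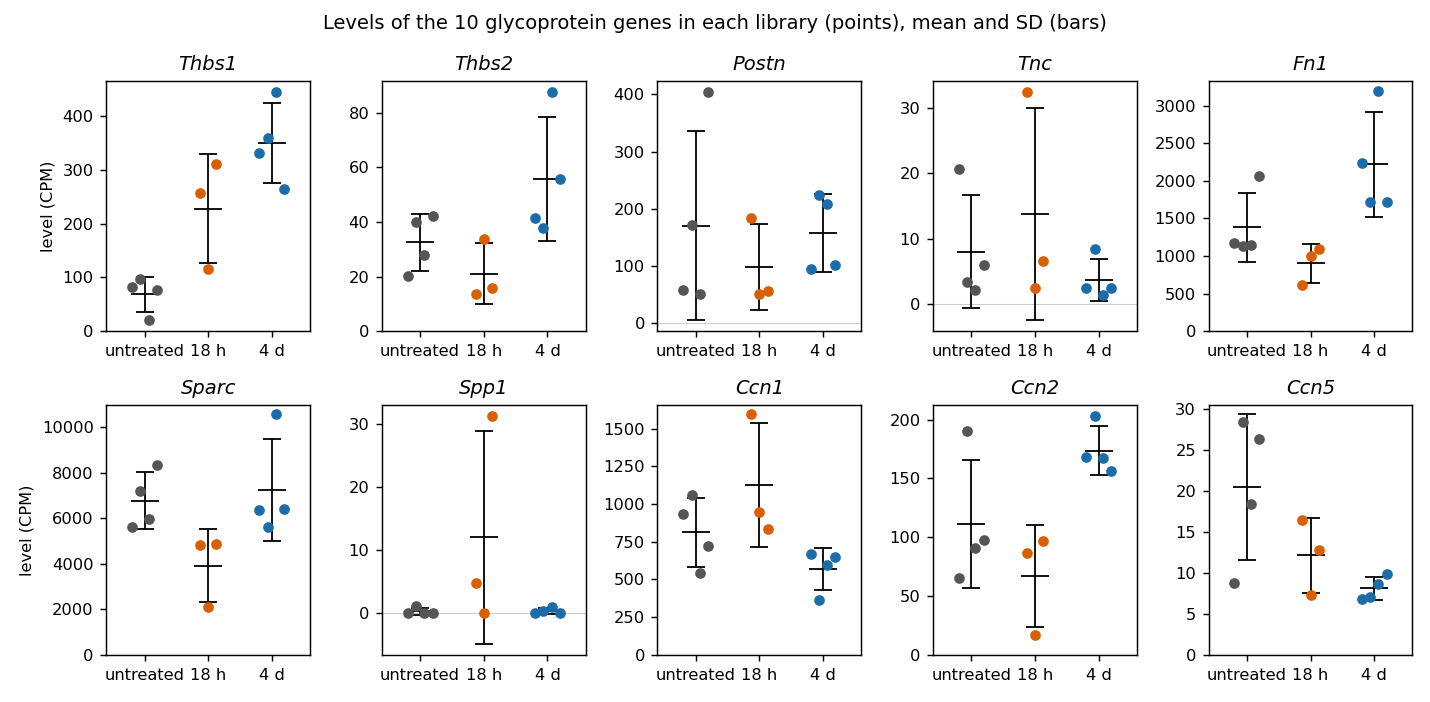
Level in CPM (y axis, linear, own scale per gene) of each of the 10 genes in each untreated, 18 h and 4 d library (points), with the group mean (wide tick) and SD (bars). Thbs1 sits between 21.6 and 96.4 CPM in untreated libraries, 115 and 310 CPM at 18 h and 264 and 443 CPM at 4 d, without overlap between untreated and either treated group.

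Thbs1 encodes thrombospondin-1, which is held in platelet granules and is also made by stromal cells (chromosome 2, 118111876 to 118127133, plus strand, GRCm38, protein-coding). Untreated replicates 1 to 4 held 81.5, 96.4, 21.6 and 75.7 CPM, the 18 h replicates 257, 115 and 310 CPM, and the 4 d replicates 331, 358, 443 and 264 CPM. Each treated library lay above each untreated one, and untreated replicate 3 was the lowest of all 11. The group means were 68.8 ± 32.6 CPM (SD, n = 4), 227 ± 101 CPM (SD, n = 3) and 349 ± 74.1 CPM (SD, n = 4). The log2 difference from untreated was 1.74 ± 0.42 at 18 h (SE, adjusted p = 0.0160, 3.34-fold, 95% interval 0.84 to 2.63). At 4 d it was 2.35 ± 0.40 (SE, adjusted p = 0.00951, 5.10-fold, 95% interval 1.48 to 3.22). From 18 h to 4 d the difference was 0.61 ± 0.42 (SE, adjusted p = 0.416), with overlapping groups. The 18 h call did not hold without 18 h replicate 1 (1.65, adjusted p = 0.0558) or without 18 h replicate 3 (1.45, adjusted p = 0.0560), whereas the 4 d call survived the omission of any single library. The authors' deposited table gives Thbs1 an adjusted p of 0.00159 at 18 h and 3.1e-06 at 4 d.

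At 18 h the endothelial marker sum lay above the untreated one, and 5 macrophage and 4 pericyte markers were higher. At 4 d the endothelial and macrophage sums overlapped the untreated ones and the pericyte sums lay below them, as given above. The part of cell makeup in the Thbs1 differences was not tested at either time. Of 8 platelet and megakaryocyte markers 3 were measured, at a sum of 31.2 to 57.4 CPM untreated, 35.5 to 57.4 CPM at 18 h and 43.9 to 70.8 CPM at 4 d. Pf4, a platelet chemokine, was at 1.06 to 14.3 CPM untreated and 0.353 to 4.97 CPM at 4 d, and Itga2b, a platelet integrin subunit, was at 23.9 to 28.9 CPM at 4 d, within its untreated range. Gp1bb, a subunit of the platelet von Willebrand factor receptor, was at 5.68 to 16.2 CPM untreated and 19.1 to 40.2 CPM at 4 d without overlap. Its log2 difference was 1.24 ± 0.39 at 4 d (SE, adjusted p = 0.0985) and 1.69 ± 0.46 from 18 h to 4 d (SE, adjusted p = 0.0465). The part of platelet RNA in the Thbs1 difference was not tested. A long noncoding gene, Gm29233, overlaps Thbs1 on the opposite strand. Whether counting used strand is not given in the sources used here. Reads of such overlapping pairs may therefore not be separable.

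Thbs2, on chromosome 17 (14665500 to 14694235, minus strand), encodes thrombospondin-2, a fibroblast product that takes part in collagen fibril assembly. It did not follow Thbs1. The untreated replicates held 20.1, 40.1, 28.0 and 42.2 CPM, the 18 h replicates 13.8, 33.9 and 15.7 CPM, and the 4 d replicates 41.3, 37.8, 87.7 and 55.9 CPM. At 18 h 2 of 3 libraries lay below all untreated ones and the third lay among them, while each 4 d library lay above each 18 h library. The log2 difference was -0.71 ± 0.40 at 18 h (SE, adjusted p = 0.269) and 0.77 ± 0.34 at 4 d (SE, adjusted p = 0.247), neither past the threshold. Between 18 h and 4 d it was 1.48 ± 0.40 (SE, adjusted p = 0.0468, 2.79-fold, 95% interval 0.61 to 2.34). That call was close to the threshold: 8 of the 11 single-library omissions ended it, the highest adjusted p being 0.202 without 18 h replicate 1, and without 4 d replicate 3 the difference was 1.15 (adjusted p = 0.119).

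The comparison of 4 d with 18 h was where most of the other members separated. In it 2 of 9 tested members were higher, Thbs2 and Fn1, and 0 were lower, against 5.51% of all tested genes in either direction, 1.7% higher and 3.81% lower. At an unadjusted p below 0.05, 4 members were higher and 2 lower, and DESeq2 called 3 higher and 1 lower. Tnc, one of the 2 lower, ranked 1994 by p among all tested genes, so at least that many genes passed the unadjusted level. The groups did not overlap for 5 members, 4 with 4 d above and 1 with 4 d below, where 20.1% of all tested genes did not overlap, 9.55% above and 10.5% below. Against untreated, 3 members did not overlap at 18 h, 1 above and 2 below, where the shares of all genes were 23.6%, 12.2% and 11.4%. At 4 d 1 member lay wholly above the untreated group and 0 below, against 14.6% of all genes, 8.1% above and 6.54% below. The median log2 difference of the 9 members was -0.69 at 18 h, 0.09 at 4 d and 0.68 between the times, beside -0.03, -0.04 and near 0 for all tested genes.

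**Figure D2:**
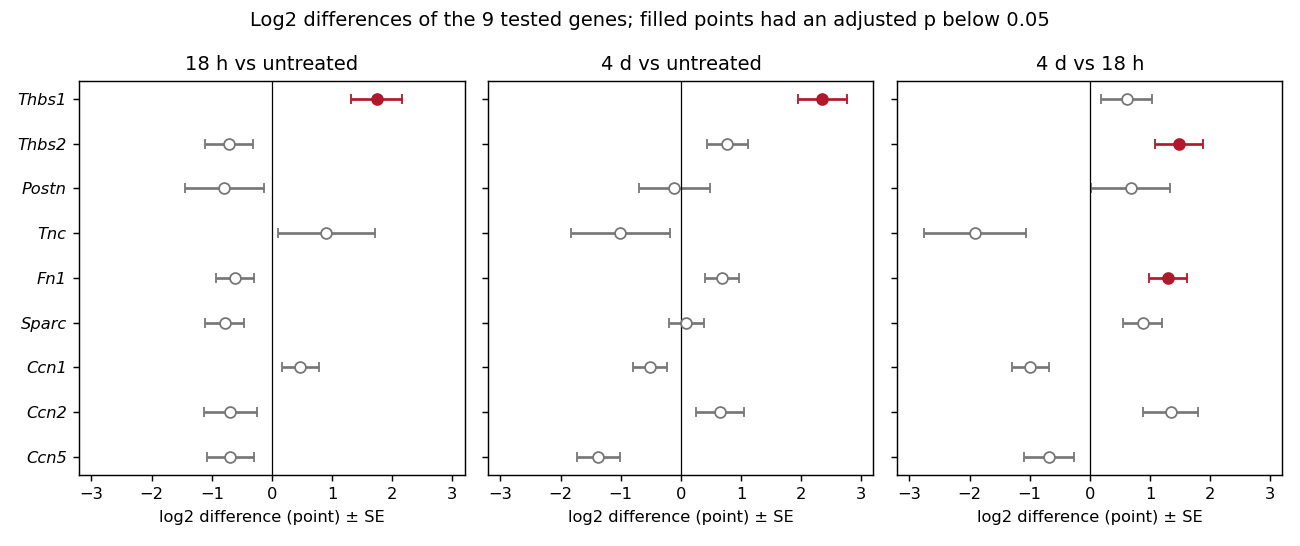
Log2 difference (x axis) with its SE for the 9 tested genes in the 3 comparisons. Filled points passed an adjusted p of 0.05: Thbs1 at 18 h (1.74) and at 4 d (2.35) against untreated, and Thbs2 (1.48) and Fn1 (1.30) between 18 h and 4 d.

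Fn1 encodes fibronectin, the main RGD-bearing adhesive glycoprotein (chromosome 1, 71585520 to 71653200, minus strand, protein-coding). The untreated replicates held 1178, 1128, 1146 and 2066 CPM, the 18 h replicates 611, 1004 and 1096 CPM, and the 4 d replicates 2237, 1719, 3196 and 1723 CPM. The 18 h libraries lay below all untreated and all 4 d libraries, while untreated replicate 4 lay within the 4 d range. The means were 1380 ± 458, 904 ± 258 and 2219 ± 696 CPM (SD, n = 4, 3 and 4). From 18 h to 4 d Fn1 rose by 1.30 ± 0.32 on the log2 scale (SE, adjusted p = 0.0290, 2.45-fold, 95% interval 0.61 to 1.98). Against untreated it differed by -0.61 ± 0.31 at 18 h (SE, adjusted p = 0.220) and by 0.68 ± 0.29 at 4 d (SE, adjusted p = 0.216). The rise was not called without 18 h replicate 1 (1.08, adjusted p = 0.145), without 4 d replicate 1 (1.29, adjusted p = 0.0608) or without 4 d replicate 3 (1.07, adjusted p = 0.0712). The antisense gene Apol7d overlaps Fn1, and its reads may not be separable.

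Sparc encodes SPARC (osteonectin), a collagen-binding protein that fibroblasts secrete in quantity (chromosome 11, 55394500 to 55423183, minus strand). The untreated replicates held 5624, 7187, 5957 and 8341 CPM, the 18 h replicates 4819, 2084 and 4866 CPM, and the 4 d replicates 6349, 5596, 10561 and 6422 CPM. The 18 h group lay below both other groups, with 18 h replicate 2 lowest, and the 4 d and untreated groups overlapped. The log2 difference was -0.79 ± 0.32 at 18 h (SE, adjusted p = 0.125, 95% interval -1.48 to -0.10), 0.09 ± 0.29 at 4 d (SE, adjusted p = 0.905) and 0.88 ± 0.32 between the times (SE, adjusted p = 0.132). None of the 3 passed. Without 18 h replicate 2 the 18 h difference was -0.49 (adjusted p = 0.319), over 1.5 times smaller.

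Fibroblast markers had their lowest sums at 18 h, 9311 CPM in replicate 2 and 14642 and 18981 CPM in replicates 1 and 3. Within that group Sparc was lowest in replicate 2 (2084 CPM). Fn1 was instead lowest in replicate 1 (611 CPM) and at 1004 CPM in replicate 2. The highest levels of both genes were in 4 d replicate 3, where fibroblast markers summed to 40131 CPM and mesothelial markers to 425 CPM. The part of cell makeup in these levels was not tested.

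None of the 3 CCN genes passed the threshold in any of the 3 comparisons in edgeR's quasi-likelihood test. Ccn1, an immediate-early matricellular gene on chromosome 3 (145646976 to 145649981, minus strand), was at 931, 1060, 541 and 722 CPM in the untreated replicates, 1597, 949 and 835 CPM at 18 h and 668, 364, 598 and 647 CPM at 4 d. Each 4 d library lay below each 18 h library, and both treated groups overlapped the untreated one. The log2 difference was 0.47 ± 0.30 at 18 h (SE, adjusted p = 0.333), -0.52 ± 0.28 at 4 d (SE, adjusted p = 0.346) and -0.99 ± 0.30 between the times (SE, adjusted p = 0.0733). The last value missed the threshold in edgeR's quasi-likelihood test and passed in DESeq2 (adjusted p = 0.0273), and the authors' deposited table gives it 0.0305. Without 18 h replicate 1 the difference was 0.13 at 18 h (adjusted p = 0.841) and -0.64 between the times (adjusted p = 0.333).

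Ccn2 is the connective tissue growth factor gene on chromosome 10 (24595442 to 24598683, plus strand). The untreated replicates held 65.5, 190, 90.8 and 97.5 CPM, the 18 h replicates 86.9, 17.0 and 96.8 CPM, and the 4 d replicates 168, 203, 167 and 156 CPM. The 4 d libraries were close together and above each 18 h library, and untreated replicate 2 lay among them. The log2 difference was -0.69 ± 0.45 at 18 h (SE, adjusted p = 0.335), 0.65 ± 0.40 at 4 d (SE, adjusted p = 0.414) and 1.34 ± 0.45 between the times (SE, adjusted p = 0.105). DESeq2 called the last (adjusted p = 0.0479), and without 18 h replicate 2, the lowest library, it was 0.92 (adjusted p = 0.148) in edgeR and the 18 h difference -0.27 (adjusted p = 0.663). Gm15270 overlaps Ccn2 on the opposite strand.

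Ccn5, on chromosome 2 (163820861 to 163833146, plus strand), is known to oppose several CCN1 and CCN2 activities in smooth muscle and fibroblasts. It held 8.77, 28.4, 18.5 and 26.4 CPM untreated, 16.4, 7.27 and 12.8 CPM at 18 h and 6.89, 7.06, 8.64 and 9.93 CPM at 4 d. Of the 4 untreated libraries 3 lay above all treated ones, and untreated replicate 1 lay among the treated libraries. The log2 difference was -0.69 ± 0.39 at 18 h (SE, adjusted p = 0.264) and -1.37 ± 0.36 at 4 d (SE, adjusted p = 0.0549, 95% interval -2.15 to -0.59). The 4 d value missed the threshold here, and passed in DESeq2 (adjusted p = 0.0163), without untreated replicate 1 (adjusted p = 0.0116) and in the authors' deposited table (adjusted p = 0.0220). From 18 h to 4 d it was -0.68 ± 0.41 (SE, adjusted p = 0.350).

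Postn and Tnc, whose proteins bind fibronectin and collagen, varied more between replicates than between groups. Postn, the periostin gene (chromosome 3, 54361109 to 54391037, plus strand), held 57.8, 171, 50.7 and 403 CPM untreated, 184, 52.1 and 57.0 CPM at 18 h and 95.7, 225, 208 and 102 CPM at 4 d. The highest untreated library was 7.95-fold above the lowest, and all 3 groups overlapped. Its log2 differences were -0.79 ± 0.66, -0.11 ± 0.59 and 0.68 ± 0.66 in the 3 comparisons (SE, adjusted p = 0.466, 0.950 and 0.579), and the first became 0.08 without untreated replicate 4.

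Tnc, the tenascin-C gene (chromosome 4, 63959785 to 64047015, minus strand), was low, with 182 counts in all. It held 20.6, 3.34, 2.13 and 6.02 CPM untreated, 32.3, 2.42 and 6.64 CPM at 18 h and 2.54, 8.47, 1.33 and 2.48 CPM at 4 d. Untreated replicate 1 and 18 h replicate 1 stood above the other 9 libraries, and the groups overlapped. Its log2 differences were 0.90 ± 0.80, -1.01 ± 0.83 and -1.91 ± 0.85 (SE, adjusted p = 0.498, 0.561 and 0.212). Without 18 h replicate 1 the first was -0.63 and the last -0.37. The transcript gene 8030451A03Rik lies on the opposite strand.

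Spp1 encodes osteopontin, an RGD-bearing phosphoprotein that macrophages and bone cells make in large amounts (chromosome 5, 104435118 to 104441050, plus strand). It had 81 counts over the 11 libraries and was at 0 in 6 of them. The untreated replicates held 0, 2, 0 and 0 counts, the 18 h replicates 9, 0 and 66, and the 4 d replicates 0, 1, 3 and 0. The signal thus came from 18 h replicates 1 and 3, at 4.77 and 31.3 CPM, and the groups overlapped. Those same libraries had the highest macrophage marker sums, 345 and 440 CPM against 166 CPM in 18 h replicate 2. Of the 10 measured macrophage markers 4, Cd14, Lyz2, Tyrobp and Fcer1g, were higher in 18 h replicates 1 and 3 than in replicate 2, and 3, C1qa, C1qc and Cybb, were highest in replicate 2. The part of macrophage RNA in Spp1 was not tested. Fitted with no filter over 12430 genes, Spp1 passed at 18 h against untreated (adjusted p = 0.00684) and between the times (adjusted p = 0.0169). Those fits rest on groups at or near 0, so no fold is given, and the authors' deposited table gives adjusted p values of 0.0970 and 0.197.

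**Figure D3:**
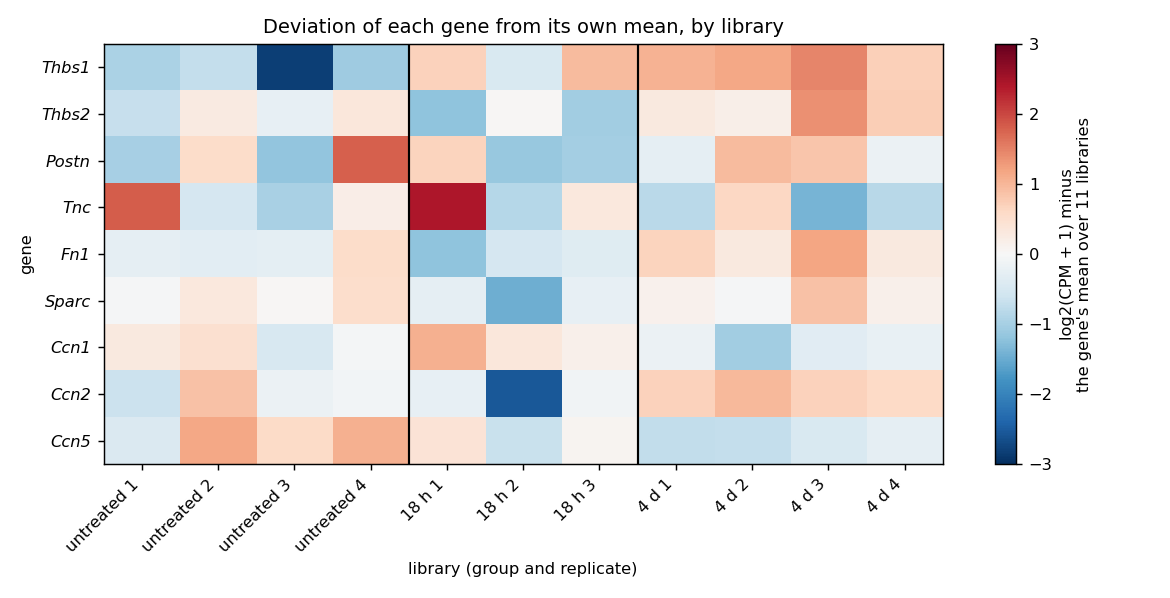
Each row is 1 of the 9 tested genes and each column 1 library. Colour is the library's log2(CPM + 1) minus the gene's mean over the 11 libraries, red above and blue below. Thbs1 is blue in the 4 untreated columns and red in the 4 columns of the 4 d group, while Fn1 and Sparc are blue at 18 h and reddest in 4 d replicate 3.

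The summed level of the 10 members was 9383 ± 1852 CPM untreated (SD, n = 4), 6405 ± 1859 CPM at 18 h (SD, n = 3) and 10769 ± 3056 CPM at 4 d (SD, n = 4), and Sparc supplied most of it. Across the 11 libraries, which share the group differences and the cell makeup given above, Thbs2 and Fn1 had a Pearson correlation of 0.84 on log2 CPM and Sparc and Ccn2 of 0.82. Thbs2 and Tnc had -0.76, and Fn1 and Ccn1 -0.68. These are descriptions over 36 pairs of the 9 tested members.

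The genes whose pattern was most like each called member were sought among 7363 tested genes over the 11 libraries. They were picked for that likeness in the same libraries as the tests below, which share the group differences. Their correlations and differences are therefore descriptions and no independent support. For Thbs1 they were Creb3l2 (r = 0.98), a transcription factor gene of the secretory pathway, Uap1 (r = 0.98), an enzyme that makes UDP-N-acetylglucosamine, and the cell cycle inhibitor gene Cdkn1a (r = 0.96). Uap1 rose by 1.36 ± 0.37 at 18 h (SE, adjusted p = 0.0298) and by 2.34 ± 0.36 at 4 d (SE, adjusted p = 0.00658). Cdkn1a rose at 4 d, by 1.36 ± 0.30 (SE, adjusted p = 0.0247). Creb3l2 did not pass at either time, at 0.48 ± 0.28 and 0.79 ± 0.25.

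For Thbs2 the nearest genes were Scpep1 (r = 0.93), a serine carboxypeptidase gene, Lrrc17 (r = 0.91) and Ddr2 (r = 0.90), a collagen receptor kinase gene. From 18 h to 4 d Ddr2 rose by 1.33 ± 0.32 (SE, adjusted p = 0.0279) and Lrrc17 by 2.02 ± 0.49 (SE, adjusted p = 0.0264), while Scpep1 was at 0.96 ± 0.30 (SE, adjusted p = 0.0825). For Fn1 they were the amine oxidase gene Aoc3 and the genes Smim7 and Pamr1, each at r = 0.92. Aoc3 rose between the times by 2.19 ± 0.41 (SE, adjusted p = 0.00616) and Pamr1 by 2.66 ± 0.45 (SE, adjusted p = 0.00286). Pamr1 was lower at 18 h than untreated, at -1.54 ± 0.43 (SE, adjusted p = 0.0328).

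**Figure D4:**
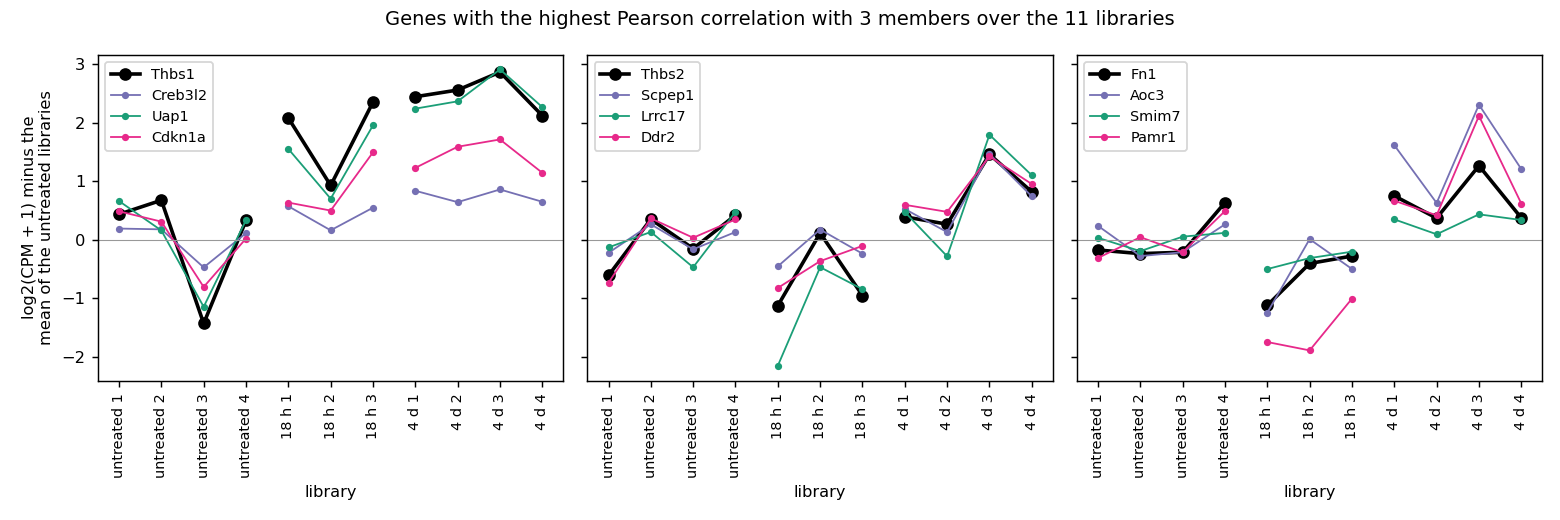
Log2(CPM + 1) of Thbs1, Thbs2 and Fn1 (black) and of the 3 genes most correlated with each (colours) in the 11 libraries, as the difference from the mean of the untreated libraries (y axis). Lines join libraries of 1 group. Uap1 follows Thbs1 closely, with untreated replicate 3 the lowest for both, and the genes near Thbs2 and Fn1 peak in 4 d replicate 3.

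Relatives of the members, 25 genes of the same families and other adhesive glycoproteins, included 17 that were tested. At 18 h 4 of them were lower and 0 higher, at 4 d 1 was lower and 0 higher, and between the times 0 passed in either direction. At an unadjusted p below 0.05 the counts were 0 higher and 7 lower, 3 and 1, and 8 and 0, and DESeq2 called 0 and 6, 1 and 1, and 3 and 0. No share of all tested genes stands beside the unadjusted and DESeq2 counts of this list or of those below. Such counts therefore do not show that a list differed from other genes. The median log2 differences of the relatives were -0.36, -0.16 and 0.70.

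Smoc2, a SPARC-related matrix gene, was at 612.6 ± 116.6 CPM untreated (SD, n = 4), 171 ± 27.6 CPM at 18 h (SD, n = 3) and 452 ± 378 CPM at 4 d (SD, n = 4). The 18 h libraries, at 178, 194 and 140 CPM, lay below each untreated library, and the difference was -1.85 ± 0.48 (SE, adjusted p = 0.0231). Tgfbi, which encodes a periostin homologue, fell by 1.67 ± 0.44 on the log2 scale at 18 h (SE, adjusted p = 0.0238). Npnt, the gene of the integrin ligand nephronectin, fell by 3.56 ± 0.76 at 18 h (SE, adjusted p = 0.00832) and by 2.49 ± 0.56 at 4 d (SE, adjusted p = 0.0257), from 5.16 to 10.0 CPM in untreated libraries. Spock3, a testican gene, fell by 3.36 ± 0.77 at 18 h (SE, adjusted p = 0.0126), from 3.61 to 9.93 CPM. Npnt was at 0 in 18 h replicates 1 and 2 and Spock3 in replicate 2, so the sizes of their fitted falls depend on the prior count. The Npnt call at 18 h held in each of 19 other settings, whereas at 4 d 6 of the 11 single-library omissions ended it. At 18 h the calls of Smoc2 and Tgfbi were each ended by 3 omissions and that of Spock3 by 1, 18 h replicate 3 in each case among them, with adjusted p values of up to 0.0704, 0.0889 and 0.0542 over all settings.

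Receptors of these proteins were counted as integrin subunits and as other receptors, and the difference between the lists was not tested. Of 14 tested integrin subunits 1 was higher at 18 h and 0 lower, and 0 passed at 4 d or between the times. At an unadjusted p below 0.05 the counts were 3 higher and 1 lower, 1 and 2, and 1 and 2, and DESeq2 called 2 and 0, 0 and 0, and 0 and 1. The higher one was Itgb7, a leukocyte integrin subunit, at 2.30 ± 0.68 (SE, adjusted p = 0.0420), with 13.8, 3.63 and 12.8 CPM at 18 h against 1.03 to 4.52 CPM untreated, and 6 of the 10 single-library omissions in which it could be tested ended that call. Without untreated replicate 4 it did not pass the filter. Itgb1, the common beta subunit of fibronectin receptors, differed by -0.05 at 18 h (adjusted p = 0.925).

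Of 11 tested other receptors 4 were higher and 1 lower at 18 h, 2 were higher and 0 lower at 4 d, and 0 were higher and 1 lower between the times. The unadjusted counts were 5 and 1, 4 and 0, and 1 and 3, and DESeq2 called 5 and 1, 2 and 0, and 1 and 2. The median differences were 0.52, 0.36 and -0.43. Sdc3, a heparan sulfate proteoglycan gene, was at 14.1 ± 6.29 CPM untreated (SD, n = 4), 100.2 ± 13.05 CPM at 18 h (SD, n = 3) and 22.3 ± 15.3 CPM at 4 d (SD, n = 4). It rose by 2.83 ± 0.46 at 18 h (SE, adjusted p = 0.00147) and fell by 2.15 ± 0.44 from 18 h to 4 d (SE, adjusted p = 0.0107). Without the shallow libraries the difference between the times was -2.01 and did not pass (adjusted p = 0.0612).

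Stab1, a scavenger receptor gene that takes up SPARC in macrophages, was at 0.355 to 1.67 CPM untreated, 10.9 to 13.2 CPM at 18 h and 5.44 to 8.97 CPM at 4 d. It differed from untreated by 3.51 ± 0.44 and 2.77 ± 0.43 (SE, adjusted p = 0.000221 and 0.00658). Stab1 had only 134 counts in all and at most 3 counts in each untreated library, so the sizes of these differences rest on few counts. Cd44, a receptor for hyaluronan and osteopontin, rose by 1.71 ± 0.49 at 18 h and by 1.78 ± 0.46 at 4 d (SE, adjusted p = 0.0338 and 0.0486). Calr, the gene of calreticulin, which binds thrombospondin-1 at the cell surface, rose by 1.01 ± 0.26 at 18 h (SE, adjusted p = 0.0221). Sdc2 was lower at 18 h, at -0.78 ± 0.24 (SE, adjusted p = 0.0451). Its call ended without untreated replicate 1, 2 or 4 and without 18 h replicate 1 or 2. Omission of 4 d replicate 1, 2 or 4 ended it too. Single-library omissions ended the 18 h calls of Calr and Cd44 in 4 cases each and the 4 d call of Cd44 in 8, with an adjusted p of up to 0.0658, 0.161 and 0.162, whereas those of Stab1 at both times and of Sdc3 at 18 h held in each of 19 other settings. The part of the endothelial and macrophage markers that were higher at 18 h in these receptor values was not tested.

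The signalling lists bear on Thbs1, Ccn1 and Ccn2 as known targets of these pathways. Of 18 tested YAP-TEAD and SRF genes 0 were higher and 1 lower at 18 h, 1 was higher and 0 lower at 4 d, and 0 passed between the times. The unadjusted counts were 2 and 3, 1 and 1, and 3 and 0, and DESeq2 called 2 and 1, 1 and 1, and 0 and 0. Amotl2, a feedback regulator of YAP, held 107, 109, 118 and 111 CPM untreated and 70.0, 36.3 and 36.5 CPM at 18 h. The groups did not overlap, and the fall of 1.21 ± 0.27 (SE, adjusted p = 0.0115) held in each of 19 other settings. Axl, a receptor kinase gene, rose by 1.12 ± 0.27 at 4 d (SE, adjusted p = 0.0387), a call that 7 of the 11 single-library omissions ended.

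Of 18 tested TGF-beta pathway genes 2 were higher and 3 lower at 18 h, 3 higher and 0 lower at 4 d, and 1 higher and 0 lower between the times. The unadjusted counts were 3 and 5, 6 and 0, and 5 and 0, and DESeq2 called 2 and 4, 3 and 0, and 2 and 0.

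Among the ligands, Tgfb1 rose by 1.27 ± 0.35 at 18 h (SE, adjusted p = 0.0315) and Tgfb3 fell by 0.95 ± 0.26 (SE, adjusted p = 0.0279). Ltbp3, a latency protein gene, held 280, 278, 301 and 292 CPM untreated and 156, 157 and 157 CPM at 18 h, where it was lower without overlap. The 4 d libraries, at 260, 297, 261 and 226 CPM, lay above the 18 h ones. Its log2 differences were -0.87 ± 0.19 (SE, adjusted p = 0.00905) at 18 h and 0.73 ± 0.19 (SE, adjusted p = 0.0359) between the times. Smad2 was lower at 18 h, at -1.76 ± 0.53 (SE, adjusted p = 0.0426). It had only 102 counts in all, and held 1.06, 2.42 and 1.90 CPM at 18 h against 4.14 to 7.45 CPM untreated. In 18 h replicates 1 and 2 its level was below 3 counts, and its call was not followed singly in the other settings. The corepressor genes Skil and Tgif1 rose at 4 d, by 1.64 ± 0.32 and 1.79 ± 0.43 (SE, adjusted p = 0.0139 and 0.0363). The 18 h call of Ltbp3 held in each of 19 other settings. Of the 11 single-library omissions, 8 ended the 4 d call of Tgif1 and 1, untreated replicate 3, that of Skil (adjusted p of up to 0.129 and 0.0626 over all settings). At 18 h 5 ended the call of Tgfb1 and 3 that of Tgfb3, and 7 ended the rise of Ltbp3 between the times.

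**Figure D5:**
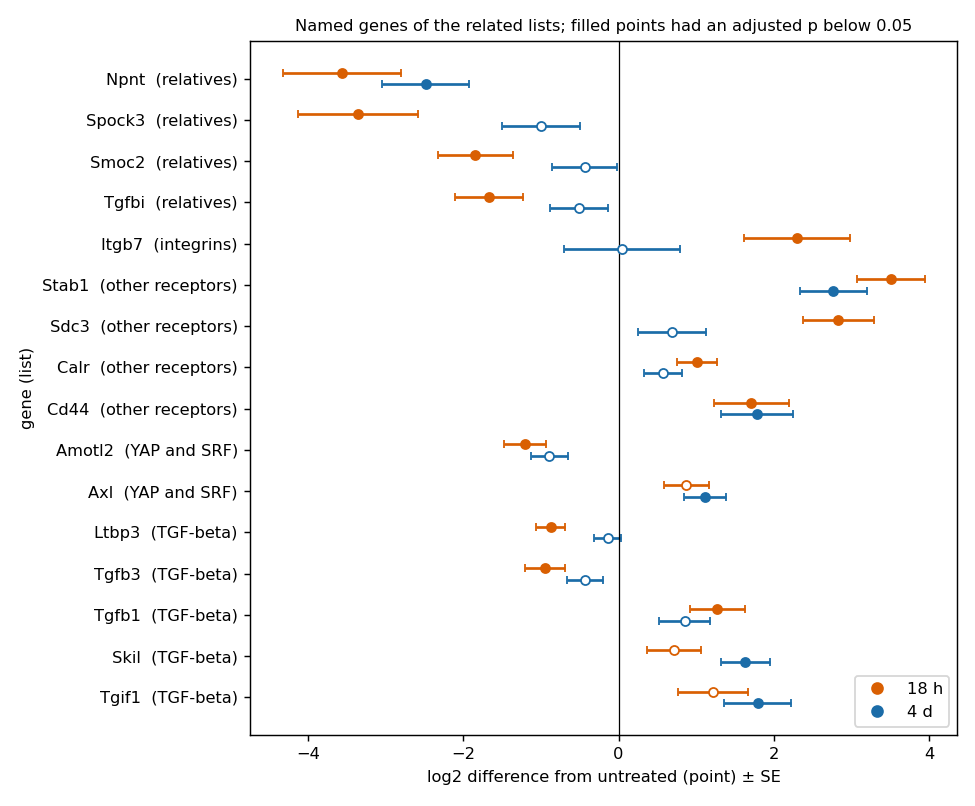
Log2 difference from untreated (x axis, point with SE) at 18 h (orange) and 4 d (blue) for genes named from the related lists. Filled points passed an adjusted p of 0.05. Npnt, Stab1 and Cd44 are filled at both times, and Npnt is the one of these below 0.

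Promoter windows of 250 bases before to 50 after the start were matched in RefSeq (GRCm38.p6) for 6 members, Thbs2, Postn, Tnc, Sparc, Spp1 and Ccn1. Thbs1, Fn1, Ccn2 and Ccn5 are named only. Both strands were searched for the TEAD motif GGAATG, the AP-1 motif TGACTCA, the SMAD motif CAGAC, the glucocorticoid receptor motif TGTTCT and the CArG box of SRF. Of 32851 promoters 14.7%, 5.2%, 49.6%, 19% and 1.63% held them, and of the 6 members 1, 0, 6, 1 and 0. The shares are per window, whereas a member counted if any of its windows matched. Postn, Tnc and Spp1 had more than 1 window, so the shares and the member counts are not like for like. Below are the matches in Ccn1 and Sparc for motifs that no other matched member held, on the gene's own strand with the motif, or its complement read on that strand, in capitals.
Ccn1, TEAD motif on the opposite strand, chr3:145650071-145650100, minus strand: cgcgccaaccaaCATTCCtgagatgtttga
Sparc, glucocorticoid receptor motif, chr11:55420141-55420170, minus strand: caaggcctggccTGTTCTaggtgattccag
Sparc, glucocorticoid receptor motif on the opposite strand, chr11:55420077-55420106, minus strand: ggcaggagccccAGAACAgatgagacaggt
A match of these letters is a description of the window and not a bound site.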

How the data were processed

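RNA of sorted thymic fibroblasts was made into MARS-seq libraries, per the labels' protocols. The submitters' processing notes name the build mm10 and the tools bcl2fastq, cutadapt, HTSeq, DESeq2 and STAR 2.5.2b. Not given in the sources used here are the collapse of molecular identifiers, the annotation and the strand setting. Each test used the raw counts that the authors deposited, 1 whole number per gene and library per the file headers. Their deposited normalized signal, which was checked to be the counts times 1 constant per library, and their deposited log2 values were not used. The authors' deposited log2 fold changes and adjusted p-values are quoted where named, with signs turned to treated over untreated. Each of the 11 libraries had 1 count column and 0 columns were left unmatched.

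A minimum count of 10 was set in filterByExpr (edgeR 4.0.16 in R 4.3.3), with TMM scaling. A robust quasi-likelihood fit held all 11 libraries and group as the only term and was tested on simulated data, and p-values were adjusted by Benjamini-Hochberg over 10067 genes. Scaling assumes that most genes do not change. Each library counted as 1 replicate. The 15 replicate pairs differed by more than sampling noise (lowest chi-square over its degrees of freedom 5.28), which does not show that they came from separate animals. The 95% intervals come from the SE of this fit, which includes the spread between libraries. Limits from counts cover counting error only. The members and lists were chosen with earlier results of these data known. The named genes were the 10 members, up to 4 called genes per list and comparison with the smallest adjusted p, and for each called member the 3 genes with the highest Pearson correlation on log2 CPM (prior count 2) among tested genes with a mean count of at least 20. For 1 listed TGF-beta pathway gene no value is reported here, and the list's counts and median include it. Sdc2 and Smad2, outside this rule, were named after their values were seen, as were Itgb1 and the single cell type markers. Alternatives were DESeq2 1.42.0, its size factors, no filter, a minimum count of 20, a replicate block, no robust dispersion, the 2 compared groups alone, the 9 deeper libraries, and each library left out in turn. RGD codons were read from GENCODE coding transcripts on GRCm38 in Python 3.11.15.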

Additional observations from a re-analysis of the deposited data

Results flagged for a closer look

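Levels of the 10 members were screened for single libraries far from the rest of their group in the untreated and 4 d groups, which have 4 libraries each. Of 20 groups of values 4 stood out. The screen used CPM on the linear scale, so the chance rate for normally distributed values cannot be set beside that count. Fn1 in untreated replicate 4 was at 2066 CPM against 1128 to 1178 CPM in the other 3. Sparc in 4 d replicate 3 was at 10561 CPM against 5596 to 6422 CPM, in the library with the lowest summed mesothelial markers (425 CPM) and the highest summed fibroblast markers (40131 CPM), and the part of these markers was not tested. Tnc in 4 d replicate 2 was at 8.47 CPM against 1.33 to 2.54 CPM, only just past the limit of the screen. Spp1 in untreated replicate 2 was at 1.11 CPM, which is 2 counts, against 0 in the other 3, within the limit that a count of 0 allows. A group with 3 values at 0 and 1 above always stands out in this screen.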

How the results depend on the processing

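Of 27 member results, 15 kept their direction and side of the threshold in each of 19 other settings, 4 lost a call in at least 1, 3 gained one and 5 changed sign. The replicate numbers did not pair the libraries, since same-numbered libraries correlated at -0.34 to 0.19 (2 of 10 pairs over 0.1). With a replicate block the counts of members higher were 0, 0 and 0 (18 h against untreated, 4 d against untreated, 4 d against 18 h). Thbs1 then had adjusted p values of 0.0847 at 18 h and 0.0571 at 4 d, and all genes gave 443 higher and 205 lower, 46 and 14, and 74 and 231. DESeq2 called 1 member lower at 4 d and 1 between the times, and for all genes 481 higher and 209 lower at 4 d and 343 higher between the times. With the 2 compared groups alone, 1 member was lower at 4 d and 1 higher between the times, and all genes gave 394 higher and 144 lower, and 102 higher and 253 lower. With no filter or without the 2 shallow libraries, 2 members were higher at 18 h and 1 lower between the times through Spp1, and 111 of all genes were higher between the times without the latter.

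Single-library omissions gave 0 to 2 members higher at 18 h, 1 to 1 at 4 d and 0 to 2 between the times, and 0 to 1 lower at 4 d and between the times. All genes higher ranged over 463 to 963, 86 to 440 and 45 to 346, and lower over 171 to 567, 27 to 177 and 196 to 461. The Postn difference at 4 d changed sign with the block (0.37), without the shallow libraries (0.043) and without untreated replicate 4 (0.76), 4 d replicate 1 (0.07) or 4 d replicate 4 (0.04). Over all omissions it ran from -0.42 to 0.76. The 18 h difference turned for Postn without untreated replicate 4 (0.085, range -1.65 to 0.085) and for Tnc without 18 h replicate 1 (-0.63, range -0.63 to 1.92). At 4 d it turned for Tnc without untreated replicate 1 (0.0085, range -1.93 to 0.0085) and Sparc without 4 d replicate 3 (-0.15, range -0.15 to 0.20). The cause was not tested. Of 570 recomputed list counts 110 moved by over 1.5 times. Depth limits Tnc, Ccn5 and Spp1 most, at 182, 327 and 81 counts in all.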
